A study of Mus musculus with 16 samples.

Results

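The extracellular matrix genes described here are 43 mouse genes that code for collagens, laminins, matrix glycoproteins and proteoglycans, enzymes that fold or crosslink collagen, and matrix proteases with their inhibitors. They were found by gene symbol in count tables of 54658 genes. All 43 were listed, and 42 reached a mean of 1 CPM (the count of a gene scaled to the size of its library) over the 15 distinct libraries, as did 14004 genes in all. The exception was Loxl2, a lysyl oxidase, which had between 0.171 and 1.2 CPM and is not tested below. The cells were C17.2α, a line of neural stem cells from mouse cerebellum that overexpress the thyroid hormone receptor TRα1. All cultures were kept in charcoal-stripped newborn calf serum without T3, and were exposed for 24 h to the vehicle DMSO or to a strobilurin, a fungicide of the class that blocks complex III of the mitochondrial respiratory chain. Picoxystrobin, pyraclostrobin and trifloxystrobin were each tested at 30, 100, 300 and 1000 nM, azoxystrobin at 100 and 1000 nM, and there were 2 DMSO libraries, which makes 16 RNA-seq libraries from a single engineered line.

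Collagens are built from 3 chains wound into a triple helix, in which glycine recurs at regular steps along each chain. Fibrillar collagens form the fibres of connective tissue, whereas type IV collagen, laminins, nidogens and perlecan form the sheet of the basement membrane, which in brain lines the vessels and the pial surface. Chains are hydroxylated and folded in the endoplasmic reticulum, secreted, trimmed and crosslinked, and the finished matrix is cleaved by metalloproteases that TIMP proteins inhibit.

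The total count per library was between 12292390 and 18188099. The counts labelled azoxystrobin at 100 nM were identical to those of the second DMSO library in every gene. The other 119 pairs of libraries differed in at least 22355 genes. The identical pair was counted as 1 DMSO library, and azoxystrobin was left with a single library that enters no test. Which of the 2 labels is right cannot be told from the counts. Every comparison with DMSO below assumes that this library is a control and not one exposed to azoxystrobin. Each concentration had a single library. The 4 libraries of a compound were used as its replicates, so that any effect of concentration adds to the SD and the SE given for a compound, and p-values measure the spread between libraries of unlike concentration. The labels do not say whether the 2 DMSO libraries came from separate cultures. Markers agreed in part with the label of a neural progenitor. Vim had 2486 to 3245 CPM, Nes 138 to 202 and Sox2 33.7 to 46.4, but Pax6 did not pass 0.126 CPM. Of the oligodendrocyte lineage markers reported here, Sox10 had 152 to 285 CPM, with Mog at 0.476 or less. Of the mesenchymal markers, Pdgfrb had 115 to 223 CPM, Acta2 65.4 to 192 and Twist1 68.9 to 104, with Thy1, Tagln and Prrx1 at 0.318 or less. Endothelial markers summed to 0.546 CPM or less in any library. The summed mesenchymal markers overlapped between groups, with 389 to 420 CPM in DMSO and 324 to 445 with pyraclostrobin. Of the 7, 3 had all 4 pyraclostrobin libraries below both DMSO libraries, beside 18.8% of all genes tested. These were Pdgfra, Pdgfrb and Tagln, the last at 0.318 CPM or less. Only Twist1 had all 4 above, beside 18% of all genes tested. Pdgfrb had 209.9 and 208 CPM in DMSO and 156, 184, 146 and 115 CPM with rising pyraclostrobin. The 8 neural progenitor markers summed to 3208 and 3293 CPM in DMSO and to 2829 to 3204 with pyraclostrobin, wholly below. Vim made up most of each sum, with 2880 and 2977 CPM in DMSO and 2486 to 2867 with pyraclostrobin. Of the 8, 3 (Vim, Sox9 and Notch1) lay below DMSO in all 4 libraries and 2 (Nes and Hes1) above. Of all genes tested, 18.8% lay below and 18% above in this way. The part of these markers in the results on matrix genes was not tested. Thra, which codes for the overexpressed receptor, had 52.2 to 85.7 CPM. In such bulk samples, fewer cells of a type and less RNA per cell cannot be told apart.

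Matrix genes were a sizeable part of the RNA of these cells. The 43 genes took 2.61% and 2.84% of all counts in the DMSO libraries, 1.92% to 2.35% with pyraclostrobin, 2.32% to 2.39% with picoxystrobin and 2.34% to 2.65% with trifloxystrobin. The 2 smallest shares were those of pyraclostrobin at 300 and 1000 nM. Per kilobase of the longest transcript, the highest mean level belonged to Sparc, a collagen-binding glycoprotein, with 1596 CPM per kb. Col1a1 followed with 542 CPM per kb, then the collagen chaperone Serpinh1 with 472, Col3a1 with 412 and the metalloprotease inhibitor Timp2 with 322. Col4a1 had 64.1 CPM per kb and Col4a2 29.9, so the fibrillar collagens Col1a1 and Col3a1 stood above the network collagens. At the other end, Col11a1, Thbs2, Vcan, Fbln2 and Nid1 had between 0.230 and 1.11 CPM per kb.

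**Figure D1:**
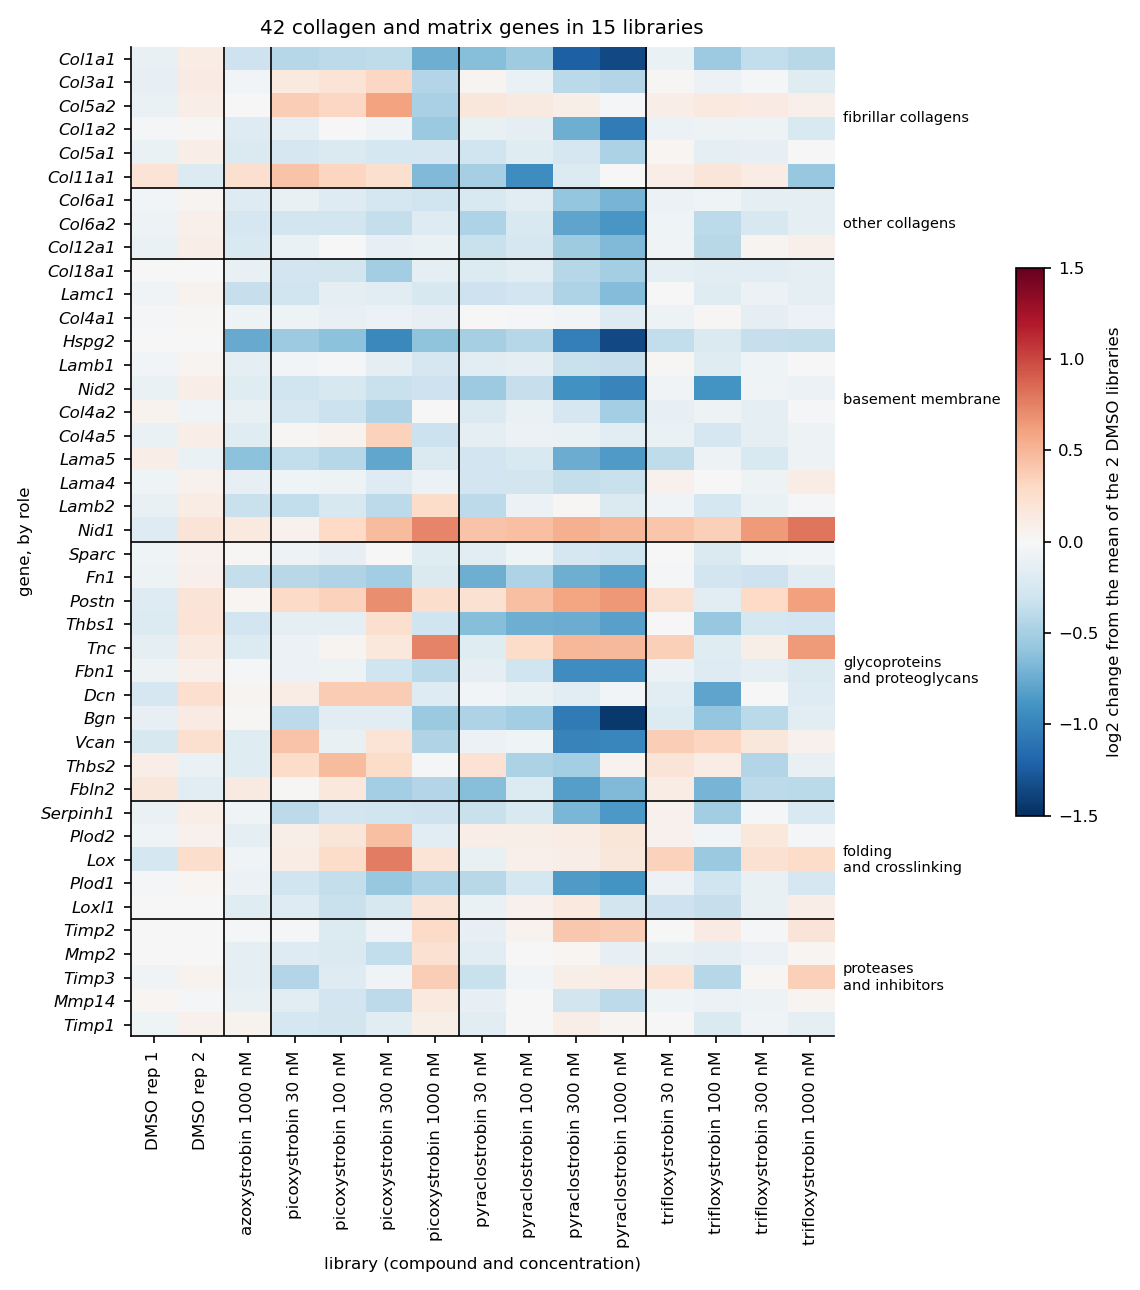
Log2 change of the 42 tested matrix genes (rows, by role and then by mean level) in each of the 15 distinct libraries (columns), relative to the mean of the 2 DMSO libraries. The columns of pyraclostrobin at 300 and 1000 nM are the bluest, with Col1a1, Hspg2, Bgn, Nid2 and Plod1 among the lowest, whereas Postn, Nid1 and Timp2 are red there.

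The first comparison was that of each compound, over its 4 libraries, with the 2 DMSO libraries. With pyraclostrobin, Col1a1, Fn1 and Thbs1 fell, and no matrix gene rose, at an adjusted p under 0.05 (edgeR's quasi-likelihood test, two-sided, Benjamini-Hochberg over 14004 genes). In the same comparison 184 of 14004 genes passed, or 1.31%, and 143 of them, or 1.02%, were lower. The 3 calls are 7.14% of the 42 matrix genes. At an unadjusted p under 0.05, 21 matrix genes were lower and 2 higher, against 23.3% of all genes in either direction. The median log2 fold change of the matrix genes was -0.28, beside 0.01 for all genes.

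Col1a1 codes for the main chain of type I collagen. It had 4081 and 4730 CPM in DMSO. With pyraclostrobin it had 2833, 3030, 1886 and 1725 CPM at 30, 100, 300 and 1000 nM. All 4 values lay below both DMSO values, and the 2 highest concentrations were the lowest of the 15 libraries. The log2 fold change was -0.90 ± 0.19 (SE, n = 4 and 2, adjusted p = 0.045 by edgeR).

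Fn1 codes for fibronectin, the glycoprotein that links matrix to integrins. Its level was 2682 and 2972 CPM in DMSO, and 1701, 2047, 1703 and 1614 CPM with rising pyraclostrobin. The groups did not overlap, and the lowest concentration was as low as the higher ones. The log2 fold change was -0.68 ± 0.12 (SE, n = 4 and 2, adjusted p = 0.026 by edgeR).

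Thbs1 codes for thrombospondin-1, a matricellular glycoprotein that activates latent TGF-beta. It had 218 and 292 CPM in DMSO and 162, 152, 151 and 144 CPM with pyraclostrobin. Here also the 4 values were below both controls, and they lay close together (152 ± 7.72 CPM, SD, n = 4). The log2 fold change was -0.74 ± 0.16 (SE, n = 4 and 2, adjusted p = 0.042 by edgeR).

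These 3 calls rested on few libraries. None was made when either DMSO library, or pyraclostrobin at 300 or at 1000 nM, was left out, with adjusted p between 0.0783 and 0.373 for the 3 genes. Without pyraclostrobin at 30 nM 9 matrix genes were called, beside 3.99% of all genes, and without 100 nM 15, beside 6.81%. Without picoxystrobin at 1000 nM, which shares the estimate of the spread, 13 were called, beside 8.6% of all genes. DESeq2 called 13 matrix genes, all lower, beside 6.06% of all genes in either direction, which added Bgn, Col12a1, Col5a1, Col6a1, Col6a2, Hspg2, Lama4, Lamc1, Nid2 and Plod1.

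**Figure D2:**
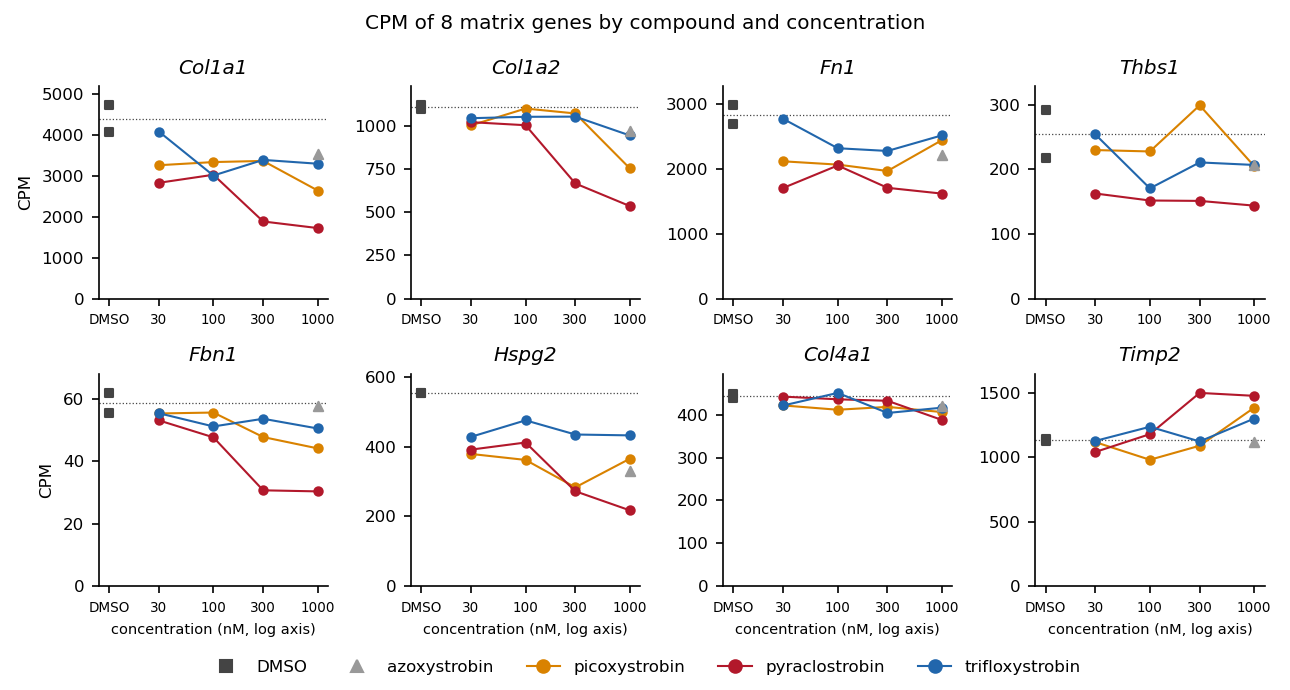
CPM (y axes, from 0) against concentration in nM (x axes, log scale) for 8 matrix genes, with 1 point per library, DMSO as squares with its mean dotted, and the single azoxystrobin library at 1000 nM as a triangle. Pyraclostrobin lies lowest at 300 and 1000 nM for Col1a1, Col1a2, Fbn1 and Hspg2, lies low at all 4 concentrations for Thbs1, and lies highest at 300 and 1000 nM for Timp2, while Col4a1 stays between 388 and 451 CPM.

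Without a test, 22 of the 42 matrix genes had all 4 pyraclostrobin libraries below both DMSO libraries, which was the case for 18.8% of all genes. For 3 matrix genes (Nid1, Postn and Plod2) all 4 lay above, as for 18% of all genes. With picoxystrobin 15 matrix genes lay wholly below, against 13.4% of all genes, and only Postn wholly above, against 11.6%. With trifloxystrobin 7 lay wholly below, against 7.78%, and only Nid1 wholly above, against 7.55%. For 17 matrix genes the libraries of pyraclostrobin at 300 and 1000 nM were both lower than the other 13, against 10.8% of all genes, and only Timp2 was higher in both than in the other 13, against 11.1%. The comparisons of the compounds with DMSO share the same 2 controls, and in 33 of the 42 matrix genes the second DMSO library was the higher. Over all 42 genes, the median log2 of the second DMSO library over the first was 0.14. The largest gap between the 2 DMSO libraries was a log2 of 0.53, in Lox.

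By role, the fibrillar collagens were not uniform. Col1a2, the other chain of type I collagen, had 1098 and 1121 CPM in DMSO and 1023, 1005, 667 and 536 CPM with rising pyraclostrobin. Over the 4 concentrations its log2 fold change of -0.46 ± 0.21 did not pass (SE, adjusted p = 0.196 by edgeR). Col3a1, the chain of type III collagen, had 2176 and 2582 CPM in DMSO and 2442, 2207, 1789 and 1745 CPM with pyraclostrobin, so that the groups overlapped at the lower concentrations. Col5a2 had 1004 and 1162 CPM in DMSO and 1056 to 1213 CPM with pyraclostrobin, which overlap. There were about 3.72 and 4.22 counts of Col1a1 for each count of Col1a2 in DMSO, and 2.77 to 3.22 with pyraclostrobin.

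Many exons of the fibrillar collagens are 54 bases long and begin with a complete glycine codon, and every glycine codon begins with GG, so that the repeat itself adds to the GC content of these transcripts. Col1a1 had 21 wholly coding exons of 54 bases, and Col1a2 and Col3a1 24 each, among 49 or 50 wholly coding exons. The first of each that is in frame and begins with a glycine codon is shown because it carries the repeat that these transcripts share. It is exon 8 of Col1a1 (chr11:94939904-94939957, plus strand), exon 8 of Col1a2 (chr6:4515481-4515534, plus strand) and exon 6 of Col3a1 (chr1:45325360-45325413, plus strand), from GENCODE M21 on GRCm38, with GGN codons in capitals.
Col1a1: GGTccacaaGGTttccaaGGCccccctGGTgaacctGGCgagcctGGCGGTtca
Col1a2: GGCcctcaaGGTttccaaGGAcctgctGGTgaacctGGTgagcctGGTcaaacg
Col3a1: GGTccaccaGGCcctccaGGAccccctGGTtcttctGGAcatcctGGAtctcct
Of the 18 codons in each, 7 are GGN in Col1a1 and 6 in the others, and the GC content is 64.8%, 59.3% and 63%. Over the whole coding sequence, GGN codons make up 26.8% in Col1a1, 27.7% in Col1a2 and 28.3% in Col3a1, against 8.19% in Fn1 and 8.96% in Thbs1. The third base of the codon is G or C in 42.3% of codons of Col1a1 and in 28.4% of those of Col3a1, against 63% in Thbs1.

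The basement membrane genes also differed among themselves. Col4a1 and Col4a2, the chains of the most common type IV collagen, are transcribed head to head on chromosome 8. Col4a1 had 439 and 449 CPM in DMSO and 442, 436, 433 and 388 CPM with rising pyraclostrobin, with overlap, and a log2 fold change of -0.06 with a 95% interval from -0.23 to 0.11, which became 0.21 after the correction for GC content described further on. Col4a2 had 225 and 208 CPM in DMSO and 186, 201, 182 and 152 CPM with pyraclostrobin, all below DMSO (log2 -0.26 ± 0.12, SE, adjusted p = 0.197 by edgeR), with 0.03 after that correction. The annotated starts of these 2 genes overlap on opposite strands, and whether the counting used the strand is not given in the sources used here. The RefSeq window from 250 bases before to 50 after the start of Col4a1 (GRCm38.p6, chr8:11312777-11313076, minus strand) shares 78 bases with that of Col4a2. These are the last 78 bases printed, and the window is shown because that stretch belongs to both windows.
Col4a1: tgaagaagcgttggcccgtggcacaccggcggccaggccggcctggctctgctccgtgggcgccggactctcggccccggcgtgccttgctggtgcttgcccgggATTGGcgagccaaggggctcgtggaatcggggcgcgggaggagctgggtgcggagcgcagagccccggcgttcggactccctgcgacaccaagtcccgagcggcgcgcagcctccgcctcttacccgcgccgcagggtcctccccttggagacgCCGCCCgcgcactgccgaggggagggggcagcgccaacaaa
Capitals mark the CCAAT box on the other strand (ATTGG) and the GC box on the other strand (CCGCCC). The GC box lies in the shared stretch, and the CCAAT box lies outside it.

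Hspg2, which codes for perlecan, the heparan sulfate proteoglycan of the basement membrane, had 553 and 554 CPM in DMSO and 391, 411, 272 and 217 CPM with rising pyraclostrobin. It was also below DMSO with every other compound, with 283 to 379 CPM with picoxystrobin, 428 to 475 with trifloxystrobin and 328 with azoxystrobin at 1000 nM. For pyraclostrobin the log2 fold change was -0.78 ± 0.19 and just missed the threshold (SE, n = 4 and 2, adjusted p = 0.0542 by edgeR). The laminin chains Lamb1 and Lamc1 are shared by most laminins of the tissue. Lamb1 had 360 and 379 CPM in DMSO and 328, 337, 293 and 291 CPM with pyraclostrobin, and Lamc1 had 596 and 643 CPM and then 499, 507, 448 and 394 CPM. Both groups lay wholly below DMSO, without an adjusted p under 0.05 (0.145 for Lamb1 and 0.0519 for Lamc1 by edgeR). Of the nidogens, which bridge laminin and type IV collagen, Nid2 had 313 and 359 CPM in DMSO and 230, 263, 179 and 169 CPM with pyraclostrobin, while the rare Nid1 had 4.43 and 5.82 CPM and 6.86 to 7.39 CPM. Of the 12 basement membrane genes tested, 11 had a negative log2 fold change and none was called. At an unadjusted p under 0.05, 8 were lower and 1, Nid1, was higher, beside 23.3% of all genes in either direction.

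Among the glycoproteins and proteoglycans, 9 of 11 had a negative log2 fold change with pyraclostrobin, with a median of -0.52. Fn1 and Thbs1 were the 2 calls. Sparc had 3749 and 4091 CPM in DMSO and 3515, 3737, 3283 and 3195 CPM with pyraclostrobin, a small difference (log2 -0.19 ± 0.10, SE, adjusted p = 0.257 by edgeR). Bgn codes for biglycan, a small leucine-rich proteoglycan, and had the lowest log2 value of any matrix gene in a library. It had 24.7 and 29.2 CPM in DMSO and 19.5, 18.7, 12.8 and 9.76 CPM with rising pyraclostrobin, all below DMSO, with an adjusted p of 0.0631 by edgeR's quasi-likelihood test. Postn, which codes for periostin, had 331 and 433 CPM in DMSO and 445, 519, 572 and 595 CPM with pyraclostrobin (log2 0.48 ± 0.19, SE, adjusted p = 0.151 by edgeR). Tnc, which codes for tenascin-C, had 142 to 228 CPM with pyraclostrobin and 146 and 178 CPM in DMSO, with overlap.

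Of the enzymes, Serpinh1, the collagen-specific chaperone HSP47, had 1198 and 1370 CPM in DMSO and 1014, 1098, 798 and 706 CPM with pyraclostrobin, all below DMSO (log2 -0.51 ± 0.16, SE, adjusted p = 0.103 by edgeR). Plod1, a lysyl hydroxylase, had 108 and 112 CPM in DMSO and 82.1, 91.6, 61.1 and 59.3 CPM, while Plod2, its paralog, had 356 and 392 CPM and then 401, 396, 404 and 423 CPM, the opposite side of DMSO. Lox, the lysyl oxidase that starts the crosslinking of collagen, had 109 and 158 CPM in DMSO and 122 to 148 CPM with pyraclostrobin, with overlap. Timp1, a metalloprotease inhibitor, had 88 and 96.6 CPM in DMSO and 82.3, 91.7, 98.4 and 94.6 CPM with pyraclostrobin. Mmp14, a membrane-bound collagenase, had 172 and 165 CPM and then 155, 169, 140 and 128 CPM. Both overlapped with DMSO, and of the 5 proteases and inhibitors none had an unadjusted p under 0.05 against DMSO.

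The second comparison was the trend on concentration within a compound, as the slope of log2 expression per 10-fold concentration over its 4 libraries. For pyraclostrobin 2 matrix genes had a slope below 0, Fbn1 and Col1a2, and none had a slope above 0 at an adjusted p under 0.05. In all 159 genes passed, or 1.14%, and 61, or 0.436%, had a negative slope. The calls are 4.76% of the matrix genes, and 13 matrix genes had a negative and 2 a positive slope at an unadjusted p under 0.05, against 19.1% of all genes in either direction. DESeq2 called 6 matrix genes, beside 4.13% of all genes, which were Bgn, Col1a1, Col1a2, Col6a1, Fbn1 and Hspg2.

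Fbn1 codes for fibrillin-1, the backbone of the microfibrils that hold latent TGF-beta complexes. It had 53, 47.6, 30.7 and 30.3 CPM at 30, 100, 300 and 1000 nM pyraclostrobin, after 55.5 and 61.8 CPM in DMSO. The level dropped between 100 and 300 nM and was level beyond. The slope was -0.60 ± 0.11 (SE, n = 4, adjusted p = 0.047 by edgeR).
Col1a2, with the values given above, stepped down at the same place and fell further at 1000 nM. Its slope was -0.67 ± 0.14 (SE, n = 4, adjusted p = 0.0498 by edgeR). Neither call held when any 1 of the 4 pyraclostrobin libraries was left out (adjusted p between 0.0816 and 0.679 by edgeR), or among genes over 10 CPM (0.060 for Fbn1 and 0.0626 for Col1a2). Between the 2 higher and the 2 lower concentrations, 6 matrix genes were called, beside 4.48% of all genes.

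The promoter windows of both genes are shown because they stepped down together. They are the RefSeq windows of 300 bases on GRCm38.p6 (chr6:4505368-4505667, plus strand, for Col1a2, and chr2:125506389-125506688, minus strand, for Fbn1), with capitals for the letters of the CCAAT box (CCAAT), the TATA box (TATAAA), the GC box (GGGCGG) and the AP-1 site (TGANTCA) on either strand.
Col1a2: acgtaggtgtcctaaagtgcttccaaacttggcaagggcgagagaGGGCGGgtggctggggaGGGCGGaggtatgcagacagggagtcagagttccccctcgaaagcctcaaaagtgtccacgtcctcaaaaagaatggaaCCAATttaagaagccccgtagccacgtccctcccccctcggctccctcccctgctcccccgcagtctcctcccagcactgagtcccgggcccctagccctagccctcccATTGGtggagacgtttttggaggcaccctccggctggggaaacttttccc
Fbn1: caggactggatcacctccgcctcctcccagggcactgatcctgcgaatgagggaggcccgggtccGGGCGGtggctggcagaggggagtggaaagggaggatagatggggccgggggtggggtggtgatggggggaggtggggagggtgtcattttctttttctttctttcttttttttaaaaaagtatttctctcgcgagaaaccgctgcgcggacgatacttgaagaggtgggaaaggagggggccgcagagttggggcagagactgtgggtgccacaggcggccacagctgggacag
The Col1a2 window held 2 CCAAT boxes and 2 GC boxes, and that of Fbn1 held 1 GC box alone. Of the 43 genes 29 had a window, 33 windows in all. The GC box stood in 25 of them, or 75.8%, against 35.7% of 32851 windows of all genes, the CCAAT box in 42.4% against 37.4%, the TATA box in 18.2% against 13.6% and the AP-1 site in 3.03% against 7.81%. Some windows overlap, so that the same site can count more than once. Both windows of Tnc hold the same GC box and the same TATA box, and the windows of Col4a1 and Col4a2 share a GC box. The median GC content was 61% in the windows of matrix genes and 52.7% in all, and the GC box holds only G and C. These matches describe the letters of the windows, and no 2 of the marked motifs overlap in those printed.

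For picoxystrobin no matrix gene was called against DMSO by edgeR or by DESeq2, with 7 lower and none higher at an unadjusted p under 0.05 by edgeR, or 16.7%, beside 16.8% of all genes in either direction. Of all 14004 genes, edgeR called 4, or 0.0286%, and DESeq2 called 123. Col1a1 had 3264, 3341, 3369 and 2645 CPM at the 4 concentrations, all below DMSO. Col1a2 had 1005, 1102, 1074 and 755 CPM, and Col3a1 2625, 2724, 2947 and 1751 CPM. In all 3 fibrillar collagens the library at 1000 nM was the lowest of the 4, and for Col3a1 the other 3 were above both DMSO libraries. When picoxystrobin at 1000 nM was left out, 7 matrix genes (16.7%) were called against DMSO, a smaller share than the 19.2% of all genes. Of these 7, Col18a1, Col4a2, Fn1, Hspg2, Lama5 and Mmp2 were lower and Col5a2 was higher. The trend on picoxystrobin concentration called no matrix gene by edgeR or DESeq2 and none of all genes (0%), with 5 matrix genes higher and 1 lower at an unadjusted p under 0.05 by edgeR, beside 9.7% of all genes. Among the 5 were Tnc with 152, 165, 180 and 271 CPM and Timp3 with 201, 240, 263 and 353 CPM.

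For trifloxystrobin no matrix gene was called against DMSO or for the trend, by edgeR or by DESeq2, and neither was any other gene (0% and 0%). Against DMSO, Nid1 alone had an unadjusted p under 0.05, beside 1.71% of all genes, with 6.53 to 8.98 CPM after 4.43 and 5.82 in DMSO, and for the trend no matrix gene had, beside 1.19% of all genes. Col1a1 had 4088, 3011, 3394 and 3300 CPM with rising trifloxystrobin, and Fn1 2764, 2312, 2270 and 2511 CPM. Azoxystrobin at 1000 nM had 3540 CPM of Col1a1, 974 of Col1a2, 2298 of Col3a1, 2203 of Fn1, 207 of Thbs1 and 57.8 of Fbn1. Its median log2 difference from DMSO over the matrix genes was -0.13, which was not tested.

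The strobilurins used here differ in their toxophore: picoxystrobin and azoxystrobin carry a methoxyacrylate, trifloxystrobin an oximino acetate and pyraclostrobin a methoxycarbamate. The 3 compounds with 4 concentrations were compared in 3 pairs at matched concentrations, with the concentration as a block and p-values adjusted over all genes and the 3 pairs. No matrix gene passed in any pair by edgeR. Of all genes, 1 (0.00714%) passed between pyraclostrobin and picoxystrobin and none (0%) in the other pairs. At an unadjusted p under 0.05, 12 matrix genes were lower with pyraclostrobin than with picoxystrobin and 19 were lower than with trifloxystrobin, with none higher in either pair, against 11.6% and 17.1% of all genes in either direction. Between picoxystrobin and trifloxystrobin 2 matrix genes were lower and 1 higher, against 8.33% of all genes. DESeq2 called 1, 3 and 0 matrix genes in the 3 pairs, beside 0.171% and 0.521% of all genes in the first pairs.

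Thbs1 gave the smallest p of a matrix gene in these pairs. At 30, 100, 300 and 1000 nM it had 230, 227, 299 and 205 CPM with picoxystrobin against 162, 152, 151 and 144 CPM with pyraclostrobin. Pyraclostrobin was lower at all 4 concentrations, by a log2 of -0.65 with a 95% interval from -0.90 to -0.40 (adjusted p = 0.247 by edgeR). Against trifloxystrobin, with 254, 170, 211 and 207 CPM, the difference was -0.46 with an interval from -0.70 to -0.21 (adjusted p = 0.301 by edgeR). For Col1a1 the difference between pyraclostrobin and picoxystrobin was -0.44 (interval -0.75 to -0.13) and that between pyraclostrobin and trifloxystrobin -0.57 (interval -0.88 to -0.26). Between picoxystrobin and trifloxystrobin the difference of Col1a1 was -0.13, with an interval from -0.44 to 0.18, which includes 0.
The slopes on concentration were compared in the same 3 pairs. No matrix gene and no gene at all (0%, 0% and 0%) passed by edgeR, and DESeq2 called no matrix gene, with 5, 7 and 0 matrix genes at an unadjusted p under 0.05 in edgeR (11.9%, 16.7% and 0%), beside 10.3%, 8.85% and 1.71% of all genes. The slope of Fbn1 was lower with pyraclostrobin than with trifloxystrobin by 0.53 in log2 (interval -0.88 to -0.18, adjusted p = 0.718), and that of Col1a2 by 0.59 (interval -1.01 to -0.16, adjusted p = 0.718).

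The matrix genes are rich in GC, and GC content moved with expression across libraries. Their longest transcripts ran from 36.3% GC in Postn to 61% in Loxl1, with Col1a1 at 58.9%, Hspg2 at 60.9% and Fbn1 at 52.3%. Of the 42 tested genes 15 had 55% or more, as did 2818 of 13929 genes with a value. Across the 13929 genes, the log2 change from DMSO correlated with GC content with r of -0.53, -0.60 and -0.67 for picoxystrobin at 30, 100 and 300 nM, but 0.17 at 1000 nM. For pyraclostrobin r was -0.27, -0.04, -0.19 and -0.31, and for trifloxystrobin between -0.25 and -0.04. These values are descriptions across genes, which are not independent and share the library and the 2 controls, and the DMSO libraries themselves differed from their mean with r of 0.28 and -0.28. Among the matrix genes r was -0.64, -0.70, -0.78 and -0.14 for picoxystrobin and -0.40, -0.21, -0.31 and -0.46 for pyraclostrobin.

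The matrix genes of 55% GC or more were mostly lower than DMSO, and so were other genes of that class. At 300 nM picoxystrobin all 15 were lower with a median log2 of -0.37, beside 90.1% of all genes of the class and a median of -0.45. At 1000 nM picoxystrobin 12 of 15 were lower with a median of -0.22, beside 43.5% of all genes of the class and a median of 0.05. At 1000 nM pyraclostrobin all 15 were lower with a median of -0.66, beside 72.6% and a median of -0.25. Between 50% and 55% GC, 12 of 16 matrix genes were lower at 1000 nM pyraclostrobin with a median of -0.37, beside 57.4% of all genes and a median of -0.08. Side by side, and without a test, the medians of the matrix genes were below those of all genes of like GC content at 1000 nM of either compound, and above that of all genes at 300 nM picoxystrobin.

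**Figure D3:**
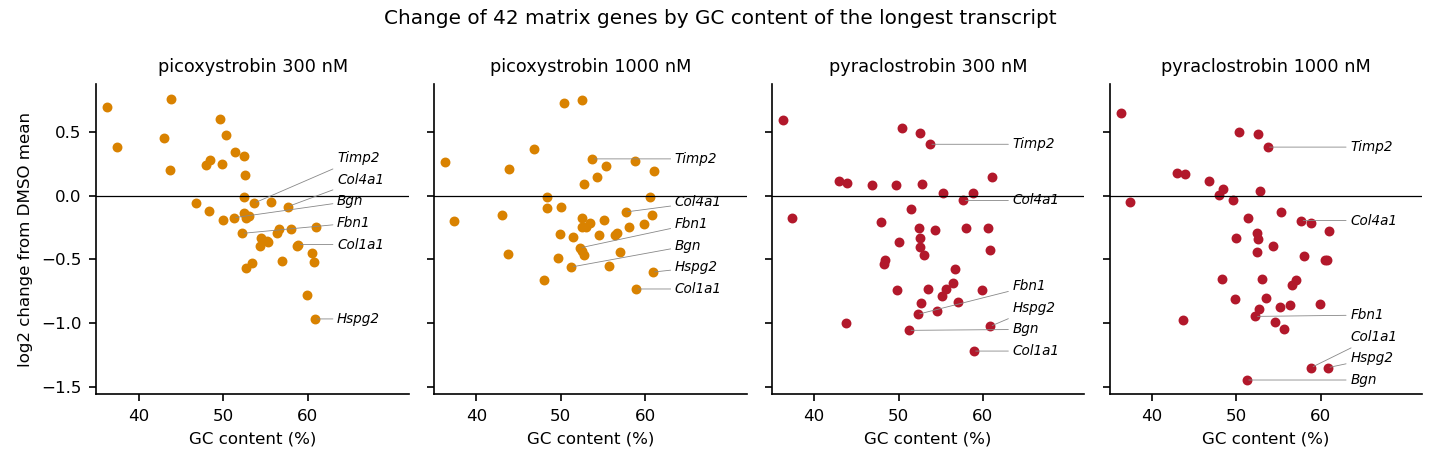
Log2 change from the DMSO mean (y axis) against the GC content in percent of the longest transcript (x axis) for the 42 tested matrix genes in 4 libraries, with 6 genes named by thin lines. The points slope down with GC content at 300 nM picoxystrobin (r = -0.78), hardly at 1000 nM picoxystrobin (r = -0.14), and in between with pyraclostrobin (r = -0.31 and -0.46).

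When a smooth trend on GC content and transcript length was taken out of each library, Fn1 alone kept its call against DMSO with pyraclostrobin, beside 1.63% of all genes called, at -0.46 ± 0.09 (SE, adjusted p = 0.032 by edgeR), where its adjusted p over all alternatives ran from 1.17e-05 to 0.287. Thbs1 was at -0.67 (adjusted p = 0.0524 by edgeR, over all alternatives 9.93e-06 to 0.318). Col1a1 was at -0.65 (adjusted p = 0.106 by edgeR, over all alternatives 2.95e-08 to 0.373). The sign turned from negative to positive in Col4a1, Col4a2, Col5a1, Lamb2, Loxl1 and Mmp2, all of 55% GC or more, and from positive to negative in Lox (0.04 to -0.02), and none of these 7 was called by edgeR over all libraries with or without the correction, although Col5a1 was among the DESeq2 calls made without it. The median of the matrix genes moved from -0.28 to -0.11. Against DMSO, picoxystrobin moved from a median of -0.12 to 0.03, and its 7 lower genes at an unadjusted p under 0.05 became 0, with 1 higher. For Hspg2 with pyraclostrobin the log2 fold change moved from -0.78 to -0.34, whereas for Bgn, of 51.2% GC, it stayed at -0.83. In the trend on pyraclostrobin concentration, the corrected fit called 4 matrix genes, beside 5.18% of all genes where the uncorrected fit called 1.14%, with slopes of -0.47 for Fbn1, -0.71 for Bgn and -0.39 for Hspg2 and of 0.39 for Timp2. Col1a2, at -0.58, missed the threshold there (adjusted p = 0.0775 by edgeR, over all alternatives 1.88e-06 to 0.679).
Timp2, which inhibits metalloproteases and takes part in the activation of Mmp2, had 1041, 1179, 1499 and 1476 CPM with rising pyraclostrobin after 1142 and 1124 CPM in DMSO. Its 2 values at 300 and 1000 nM were the highest of the 15 libraries.

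**Figure D4:**
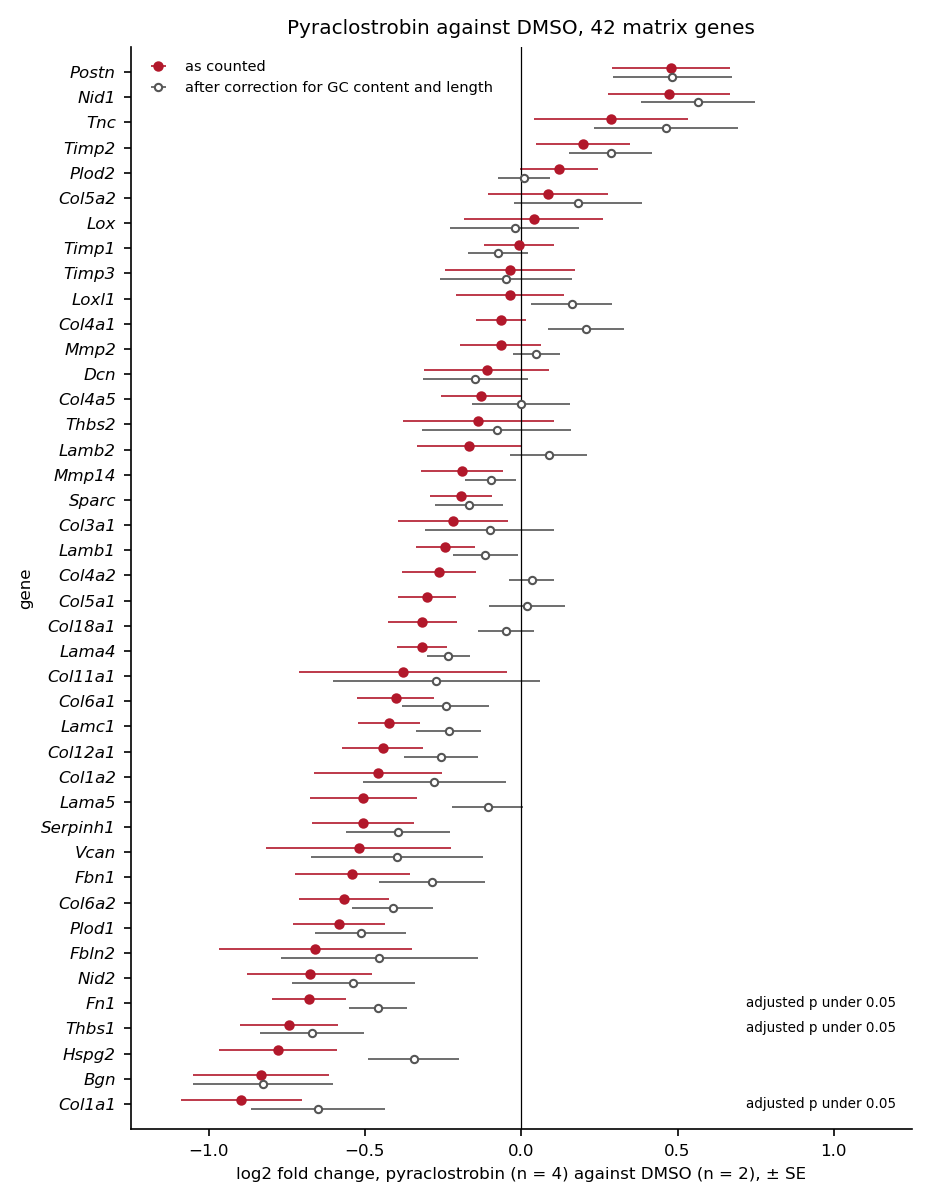
Log2 fold change of pyraclostrobin (4 libraries) against DMSO (2 libraries) with its standard error (x axis) for the 42 tested matrix genes (y axis, ordered by the uncorrected value), as counted (filled) and after correction for GC content and length (open). Most GC-rich genes such as Hspg2, Col18a1 and Lama5 move towards 0, Fn1 and Thbs1 stay well below 0, and Postn, Nid1 and Timp2 stay above 0.

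Other genes of the pathway were taken as 4 lists. Of 25 tested genes for collagen folding and secretion, 3 fell with pyraclostrobin against DMSO and none rose at an adjusted p under 0.05. Of all genes, 1.31% passed in either direction by edgeR. At an unadjusted p under 0.05, 8 of the list were lower and none higher, beside 23.3% of all genes in either direction. P3h1, a prolyl hydroxylase of collagen, had 52.5 and 61.8 CPM in DMSO and 37.6, 41.5, 37.7 and 37.4 CPM with rising pyraclostrobin (log2 -0.57 ± 0.10, SE, adjusted p = 0.0319 by edgeR). Pcolce, which enhances the cleavage of procollagen, had 733 and 827 CPM in DMSO and 580, 593, 485 and 442 CPM (log2 -0.57 ± 0.13, SE, adjusted p = 0.0485 by edgeR). Sec31a, a coat protein of the vesicles that carry procollagen, had 249 and 276 CPM in DMSO and 202, 216, 201 and 188 CPM (log2 -0.38 ± 0.08, SE, adjusted p = 0.0469 by edgeR). All 3 lay wholly below DMSO, as did 18.8% of all genes. After the correction for GC content and length none of the 3 was called. Mia2 of the same list was, beside 1.63% of all genes. DESeq2 called 7 genes of the list, beside 6.06% of all genes.
Of 25 matrix receptors, 23 genes of TGF-beta signalling and 25 other proteases and inhibitors, none was called in any of the 6 tests of a compound against DMSO or on concentration by edgeR. For pyraclostrobin against DMSO 6, 4 and 10 genes of the lists had an unadjusted p under 0.05 by edgeR, beside 23.3% of all genes. DESeq2 called 1, 2 and 0 there, beside 6.06% of all genes. For the slope of pyraclostrobin 5, 5 and 9 had an unadjusted p under 0.05 by edgeR, beside 19.1% of all genes. DESeq2 called 1, 1 and 2 for that slope, beside 4.13% of all genes. The smallest p of a matrix receptor for pyraclostrobin was that of the slope of Itgb3, an integrin chain, at -0.61 ± 0.14 (SE, adjusted p = 0.0553 by edgeR). That of a TGF-beta gene was the slope of Tgfb3, a ligand, at -0.46 ± 0.11 (SE, adjusted p = 0.0585 by edgeR). Among the other proteases it was the slope of Adam12, at -0.81 ± 0.22 (SE, adjusted p = 0.0811 by edgeR). After the correction for GC content and length, Itga1, an integrin chain, was called with pyraclostrobin against DMSO, beside 1.63% of all genes. Itga1, Itgb3, Tgfb3 and the prolyl isomerase Ppib were called for its slope, beside 5.18% of all genes.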

How the data were processed

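RNA was taken from C17.2α cells after 24 h, and the authors prepared single-end libraries (Lexogen SENSE total RNA), aligned the reads to mm10 (Bowtie2 2.3.2.2 in the submitters' processing notes) and deposited 1 table of raw counts per gene and library from htseq-count, without normalization or pooling. The annotation and the strand setting are not given in the sources used here.

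The members and the gene lists were chosen with earlier results of these data known. Of 16 libraries, 15 are distinct. Counts of the 14004 genes with a mean of at least 1 CPM were scaled by TMM and tested with edgeR 4.0.16 (glmQLFit and glmQLFTest, two-sided) in R 4.3.3. The models had 1 level per compound (15 libraries), a slope on log10 concentration per compound (12 libraries), or compound and concentration level (12 libraries). P-values were adjusted by Benjamini-Hochberg over all genes, and over the 3 pairs where compounds were compared. Standard errors were derived from the F statistic. The CPM printed are scaled by TMM, and a prior count of 2 entered log2 differences of single libraries. Totals of 12292390 to 18188099 counts leave genes near 1 CPM with few counts. The correction for GC content and length fitted natural splines of 5 degrees of freedom each on the longest GENCODE M21 transcript (13929 genes with a value) and entered the model as an offset. Codon counts used the longest coding transcript. Promoter windows came from RefSeq. Chosen for description by library were 13 collagens, laminins and other matrix genes set by name, and up to 10 members called per comparison. For many of them the text gives values for DMSO and pyraclostrobin alone, and some only as a range. The heat map of log2 changes shows all 42 tested matrix genes in each of the 15 distinct libraries. Other lists were given by counts with up to 3 genes of the smallest p named. Where further members are described in the text, they were chosen after their values were seen. Alternatives were DESeq2 1.42.0, RLE size factors, other filters, a robust fit, the GC correction, and libraries left out.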

Additional observations from a re-analysis of the deposited data

Results flagged for a closer look

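In groups of 4 libraries, chance alone sets 1 value apart from the others in about 1 in 20 groups by the gap test used here (Dixon's, at 95%), and 7 of the 126 groups of a matrix gene and compound had one. With picoxystrobin, the library at 1000 nM stood apart for Col1a1, at 2645 CPM where the others had 3264 to 3369, and the library at 300 nM stood apart for Lama4 (91.4 CPM, others 98.2 to 99.6) and for Postn (613 CPM, others 454 to 480). With trifloxystrobin, the library at 1000 nM was low for Col1a2 (946 CPM, others 1046 to 1055) and for Col11a1 (1.30 CPM, others 2.14 to 2.27). The library at 100 nM was low for Nid2 (180 CPM, others 315 to 324) and high for Hspg2 (475 CPM, others 428 to 434). In pyraclostrobin no library stood apart for any matrix gene.

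Vcan, which codes for the proteoglycan versican, lay above the DMSO mean in all 4 trifloxystrobin libraries (log2 of the means 0.22, lowest 4.23 CPM) and below it in all 4 pyraclostrobin libraries (log2 -0.50, highest 3.85 CPM). The 2 DMSO libraries had 3.40 and 4.82 CPM and so overlapped with both compounds. Compared at matched concentrations, Vcan was lower with pyraclostrobin than with trifloxystrobin by a log2 of -0.77, with an adjusted p of 0.303 by edgeR. Whether this differs by compound cannot be read from single libraries of so rare a transcript.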

How the results depend on the processing

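Apart from libraries left out singly, 25 counts of called matrix genes moved and 77 did not. A count was taken as moved when it changed by over 1.5 times, or to or from 0. Of the medians, 8 moved by more than the spread between libraries and 94 did not. The share of all genes called in the same fit follows each count in parentheses. For pyraclostrobin against DMSO (3 called, 1.31%), 13 were called with DESeq2 (6.06%), 7 among genes over 10 CPM (2.12%), 16 without a filter (3.87%), 1 after the correction for GC content and length (1.63%), 13 without picoxystrobin at 1000 nM (8.6%), 5 with all 16 libraries (2.24%), 0 when each compound was fitted alone (0%) and 7 (4.56%) without picoxystrobin at 30, 100 and 300 nM, an alternative chosen after seeing the data. For its slope (2 called, 1.14%), 6 were called with DESeq2 (4.13%), 0 among genes over 10 CPM (0%), 11 without a filter (3.28%), 4 after the correction (5.18%), 1 with the robust fit (0.428%), 10 without picoxystrobin at 1000 nM (11.7%) and 6 between the 2 high and the 2 low concentrations (4.48%). For picoxystrobin (0 called), 2 were called without a filter (0.681%) and 7 without its library at 1000 nM (19.2%), and 2 for its slope without a filter (1.01%). At matched concentrations (0 called in each pair), pyraclostrobin against picoxystrobin gave 1 with DESeq2 (0.171%), 6 without a filter (1.32%) and 1 without picoxystrobin at 1000 nM (0.843%). Pyraclostrobin against trifloxystrobin gave 3 (0.521%), 12 (2.1%) and 2 (0.693%) under the same settings, and picoxystrobin against trifloxystrobin gave 2 without a filter (0.425%).

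With libraries left out in turn, the count ran from 0 to 15 for pyraclostrobin and from 0 to 7 for picoxystrobin against DMSO, from 0 to 3 for the slope of picoxystrobin (3 without 300 nM, or 7.14%, beside 7.11% of all genes), from 0 to 1 for pyraclostrobin against picoxystrobin, and was 0 throughout for the slope of pyraclostrobin. Where a DMSO library is left out, the lone one is assumed to vary like the other groups.

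The correction for GC content and length moved the median log2 value of the matrix genes to 0.027 for picoxystrobin and -0.11 for pyraclostrobin against DMSO, to -0.12 for the slope of picoxystrobin, to -0.030, -0.067 and -0.13 for the differences of slopes (pyraclostrobin minus picoxystrobin, pyraclostrobin minus trifloxystrobin, picoxystrobin minus trifloxystrobin), and to 0.067 for picoxystrobin minus trifloxystrobin at matched concentrations. Between high and low concentrations the difference of slopes of pyraclostrobin and trifloxystrobin had a median of -0.23. With libraries left out, the median slope ran from -0.32 to -0.12 for pyraclostrobin and from -0.047 to 0.13 for trifloxystrobin, and the median difference of slopes from -0.36 to -0.10, -0.36 to -0.092 and -0.18 to 0.080 in the 3 pairs. The cause of these moves was not tested, beyond the fewer genes or libraries that a setting holds. None of the 5 called gene results reversed under its 12 or 16 alternatives. Against DMSO, Col1a1 kept its call in 10 of 16, Fn1 in 11 and Thbs1 in 10, and for the slope Col1a2 kept it in 5 of 12 and Fbn1 in 7.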
